A study of Mus musculus with 36 samples.

Results

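The effect of Tpp1 loss on the cerebellum (Cb) of mice of 2 months was followed in 6 of the 36 RNA-seq libraries of the series, which were chosen by their labels as the 3 Cb libraries of Tpp1-/- mice and the 3 Cb libraries of controls at that age. The Tpp1-/- line carries a Tpp1 gene disrupted by targeting and is kept by crosses of heterozygotes, and the controls were unaffected siblings of the same age, labelled wild type (wt). All 6 libraries came from males. Total RNA was taken from Cb, and stranded poly(A) libraries were counted over genes. Further libraries served as a scale: 6 from forebrain/midbrain (F/M) of 2 months, also all males and with wt controls, and the F/M and Cb libraries of 1 and 3 months, in which the control with number 3 at 1 month is labelled Tpp1+/- and the other controls wt. The groups of 1 and 3 months each held 1 female and 2 males. The labels do not say which dissection borders separated F/M from Cb.

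TPP1 is a lysosomal serine protease that removes tripeptides from the N-termini of proteins, and its loss in people causes CLN2 disease, a neuronal ceroid lipofuscinosis of childhood. The cerebellar cortex holds very many granule cells, a single layer of Purkinje cells with their Bergmann glia, and inhibitory interneurons. The superior and inferior colliculi of the midbrain lie just in front of it, and the choroid plexus of the fourth ventricle, an epithelium that makes cerebrospinal fluid, lies just below it, so that both border the tissue when Cb is taken from the brain.

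The 6 Cb libraries held between 15745425 and 27048487 counted reads, and 17229 genes were tested at 2 months. Tpp1 (ENSMUSG00000030894, GRCm38 chr7:105744811-105752235, minus strand) was measured as CPM (counts of a gene relative to the TMM-scaled library total) at 111, 110 and 111 in the controls and at 27.8, 25.4 and 26.5 in the Tpp1-/- libraries. The groups were far apart, with a log2 fold change of -2.06 ± 0.06 (SE, n = 3 per group) and an adjusted p of 1.13e-13 in edgeR's quasi-likelihood test, and the counts that remain are summed over the whole gene. At 1 month Tpp1 was at 89.4 and 87.9 CPM in the Cb controls labelled wt and at 56.5 CPM in that labelled Tpp1+/-, whereas at 3 months the 3 Cb controls labelled wt had 53.1, 56.4 and 50.5 CPM and the Tpp1-/- libraries 21.2 to 21.8 CPM. The controls of 3 months were thus near the Tpp1+/- library of 1 month, and whether this comes with genotype or with the different counting of each age was not tested. The difference of the Tpp1 effect between 2 and 3 months (-0.75, adjusted p = 0.0223) and each other comparison with 3 months rests on these libraries.

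The labelled tissue was checked against its defining markers. The granule cell genes Gabra6, Cbln3, Zic1 and Neurod1 lay between 437 and 2010 CPM in every library, and the Purkinje cell genes Pcp2, Calb1 and Car8 between 215 and 1950 CPM. The first principal component held 40.7% of the variance of the 6 libraries and set all controls on the side opposite to all Tpp1-/- libraries. The second held 21.1%, and in both groups it set the libraries in the same order of replicate number.

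Genes were called differentially expressed (DEG) when they changed by at least 1.5-fold and the adjusted p was under 0.1. There were 353 DEGs in Cb, or 2.05% of the genes tested, of which 310 were lower (1.80%) and 43 higher (0.250%) in Tpp1-/- mice, while the median log2 fold change of all genes was 0. In 306 of the lower and 41 of the higher DEGs the 3 libraries of each group did not overlap, which was the case for 10.5% of all genes in the lower and 7.65% in the higher direction. The genes were then divided by where in the brain they are mainly expressed. Genes were sorted by the controls of 1 and 3 months, without use of the libraries of 2 months, into F/M-high (at least 2-fold higher in F/M with an adjusted p under 0.1 at both ages), Cb-high (the same in Cb) and shared genes.

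Most lower DEGs were genes expressed mainly outside Cb. The F/M-high class held 1978 of the tested genes but 243 of the 310 lower DEGs, so that 12.3% of its genes were lower DEGs, 9 were higher DEGs, and its median log2 fold change was -0.21. The shared class held 13520 genes, of which 63 (0.466%) were lower and 29 higher DEGs, with a median of 0.005. With classes from 1 month alone, an alternative added after the data were seen, 253 of the 310 lower DEGs were F/M-high and 50 shared. Of the 1215 Cb-high genes 1 was a lower DEG, the homeobox gene En1, and 4 were higher DEGs, with a median of 0.08. The other 516 genes, which were not tested at 1 or 3 months, held 3 lower DEGs and 1 higher DEG. In RNA of whole tissue, fewer cells of a type and less RNA per cell cannot be told apart, which holds for every result given here.

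The share of lower DEGs changed with the size of the regional bias. It was 0.477% of genes with up to a 2-fold F/M excess in controls, 5.90% between 2- and 4-fold, 16.9% between 4- and 8-fold and 26.4% between 8- and 16-fold, and then fell to 17.5% and 9.60% in the 2 groups of genes with a greater excess. The median log2 fold change followed the same course, from -0.02 through -0.13 and -0.39 to -0.68, and was -0.38 and -0.33 in the genes with the greatest excess. Genes with the strongest Cb bias had a median of 0.13. The filter on low counts ran over F/M and Cb together, so genes with a great F/M excess could be tested through their F/M level. Those at least 16-fold higher in F/M had a mean log2 CPM of -1.53 to -1.38 in the Cb controls of 2 months. Few counts in Cb make a call less likely, so the fall in the share cannot be read as a smaller effect.

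**Figure D1:**
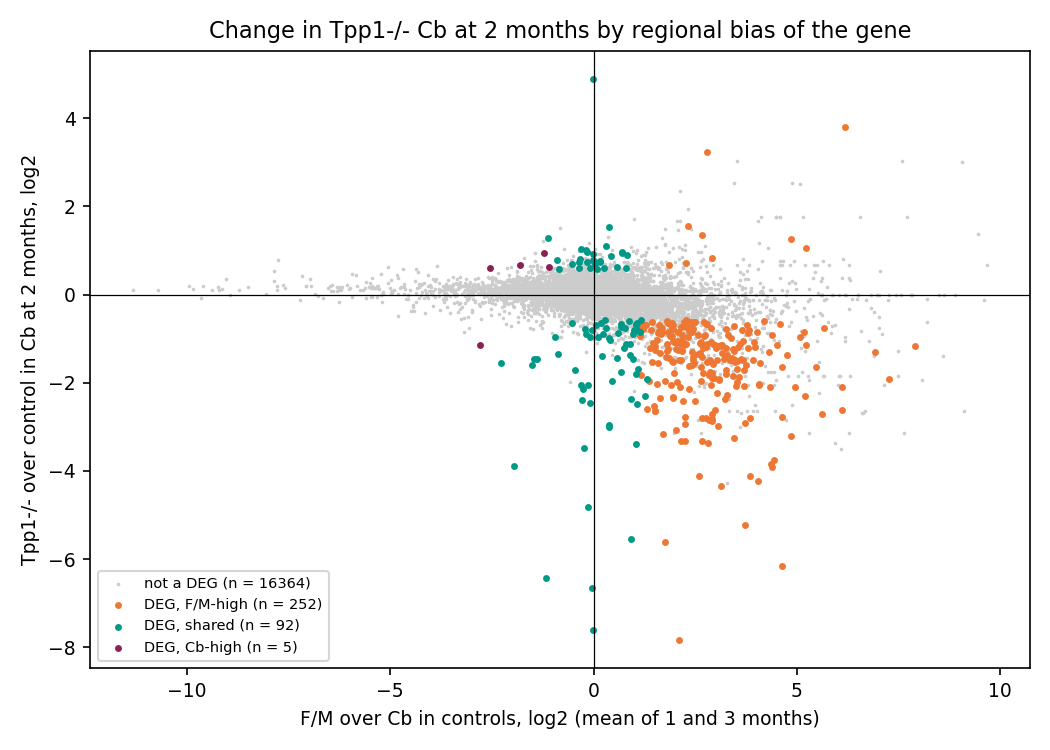
Each point is a gene, placed by its log2 ratio of F/M over Cb in controls (x axis, mean of 1 and 3 months) and by its log2 fold change in Tpp1-/- Cb at 2 months (y axis). The DEGs of the F/M-high class (252, orange) gather below 0, those of the shared class (92, green) reach from -7.61 for Gata3 to 4.89 for Gm15446, and the 5 Cb-high DEGs are purple; genes without a class are not drawn.

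The F/M content of each Cb library was measured as the summed CPM of 191 genes at least 16-fold higher in F/M than in Cb controls, in percent of the same sum in F/M controls of that age. It was 3.39%, 4.02% and 3.75% in the Cb controls of 2 months and 2.20%, 2.36% and 2.33% in the Tpp1-/- libraries. The lowest control was thus above the highest Tpp1-/- library, and the means were 3.72% ± 0.316 and 2.30% ± 0.085 (SD, n = 3). The value depends on the genes chosen, with means of 6.13% and 4% for genes at least 8-fold higher in F/M and of 1.12% and 0.523% for those at least 32-fold higher. The other 4 Cb groups, of 1 and 3 months, ranged from 3.05% to 4.12%, so that no other Cb library was as low. Of the 191 genes 26 were lower DEGs and 1 was a higher DEG, with a median log2 fold change of -0.37. The mean log2 level of these genes lay with genotype for 92.1% of its variance over the 6 libraries, so that F/M content and genotype cannot be told apart in them. With that level as a covariate in the 6 libraries 11 DEGs were left, of which 6 were among the 353: Lhx9, Shox2, Six3, Tcf7l2, Nrgn and Tpp1. Nrgn, neurogranin, a calmodulin-binding protein of forebrain neurons that is named here after its values were seen, lay at 41.6, 42.4 and 36.8 CPM in controls and 3.09, 2.41 and 3.56 CPM in Tpp1-/- Cb (-3.75 ± 0.12, adjusted p = 4.52e-13).

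**Figure D2:**
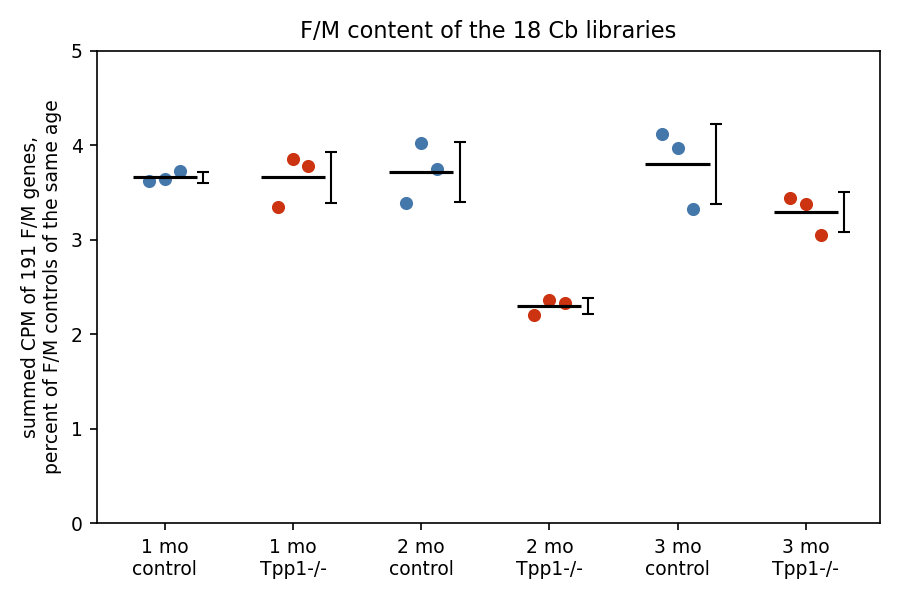
Summed CPM of the 191 genes with at least 16-fold higher level in F/M, in percent of the F/M controls of the same age, for the 18 Cb libraries (points; blue, control; red, Tpp1-/-; bar, mean; whisker, SD of 3). The 3 Tpp1-/- libraries of 2 months lie between 2.20% and 2.36%, below the other 15.

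Some transcription factors of midbrain, thalamus and hypothalamus were lower. Of the 37 measured genes of a list of markers of these regions 10 were lower DEGs (1.80% of all genes were) and none was a higher DEG, 9 had a positive log2 fold change, and the median was -0.37 against 0 for all genes. By regional class 11 of the 37 were F/M-high, 16 shared, 9 Cb-high and 1 not classed. The summed level of the list was 2410 to 2440 CPM in controls and 2210 to 2450 CPM in Tpp1-/- Cb. In the F/M libraries of 2 months it was only 685 to 943 CPM, so the sum mostly reflects genes that are higher in Cb. Tcf7l2 (GRCm38 chr19:55741810-55933654, plus strand), a Wnt effector that marks thalamic and tectal neurons and also maturing oligodendrocytes, lay at 31.8, 37.7 and 35.5 CPM in controls and at 3.57, 5.09 and 4.69 CPM in Tpp1-/- Cb. Its log2 fold change was -3.00 ± 0.12 (adjusted p = 9.50e-12). The LIM homeobox gene Lhx9 fell from 13.1, 18.3 and 14.8 to 1.57, 1.14 and 1.37 CPM (log2 fold change -3.49 ± 0.18, adjusted p = 3.48e-10). Shox2, a homeobox gene of the tectum and thalamus, fell from 7.25, 13.2 and 10.3 to 0.182, 0.227 and 0.250 CPM (-5.55 ± 0.34, adjusted p = 4.73e-09). In all 3 genes the lowest control lay far above the highest Tpp1-/- library. All 3 belonged to the shared class, with log2 ratios of F/M over Cb in controls of 1 and 3 months between -0.46 (Lhx9) and 1.35 (Shox2).

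Several such factors were nearly without reads in Tpp1-/- Cb. Gata3, which specifies inhibitory neurons of the midbrain, had 75 reads in the 3 controls and 0 in the 3 Tpp1-/- libraries, at least 27.5-fold lower when 3 reads over the group are taken as the floor. Six3, a factor of the forebrain and hypothalamus, had 296 reads against 1, Tfap2d, an AP-2 factor of the tectum, had 191 against 2, and Pax7, a paired box factor of the dorsal midbrain, had 62 against 2. Scaled for depth these were ratios of 326 (95% counting interval 58.0 to 12900), 105 (28.7 to 874) and 34.1 (9.05 to 288). Intervals and floors of this kind cover counting error only. The long RNA Six3os1 beside Six3 had 151 reads against 3, a ratio of 55.4 (18.6 to 272), and was among the F/M-high genes with the largest decreases. Pou4f2, a POU factor of tectal projection neurons, fell from 1.32, 3.17 and 1.80 to 0.0364, 0.182 and 0.250 CPM (-3.89 ± 0.46, adjusted p = 2.49e-05), and Pou4f1 had a log2 fold change of -2.96 ± 0.52 (adjusted p = 0.00179). Six3 was F/M-high, whereas Gata3, Tfap2d, Pax7, Pou4f2 and Pou4f1 were shared. The log2 ratio of F/M over Cb in controls of 1 and 3 months was -2.97 and -0.97 for Pou4f2 and -1.64 and -0.72 for Tfap2d. It lay between -0.36 and 0.69 for Gata3, Pax7 and Pou4f1.

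Slc17a6, the vesicular glutamate transporter VGLUT2 of subcortical excitatory neurons, was also of the shared class and had a higher level than these factors. It lay at 73.9, 100 and 86.7 CPM in controls and at 41.9, 22.9 and 31.1 CPM in Tpp1-/- Cb, with no overlap (-1.44 ± 0.15, adjusted p = 4.26e-06). In the F/M libraries of the same age the members of this list had a median log2 fold change of 0.35, and Tcf7l2, Lhx9, Shox2 and Slc17a6 stood at 0.50, 0.47, 0.58 and 0.35 there. The difference between the regions was tested itself and came to -3.50 for Tcf7l2 (adjusted p = 8.85e-11), -3.96 for Lhx9 (3.84e-09), -6.13 for Shox2 (1.51e-08) and -1.79 for Slc17a6 (2.36e-05).

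The levels of the same genes were set against the Cb libraries of 1 and 3 months, which were counted with other annotations and strand settings, so that levels across ages are a description only. In these 12 libraries Tcf7l2 ranged from 27.4 to 47.6 CPM, Lhx9 from 7.66 to 18.4 CPM, Sst from 9.10 to 21.6 CPM and Six3 from 2.08 to 5.06 CPM, in Tpp1-/- and control mice alike. The Tpp1-/- libraries of 2 months were thus the lowest of all 18 Cb libraries for these genes. Of the 310 lower DEGs, which were chosen by their low level in the Tpp1-/- libraries of 2 months, 188 (60.6%) were higher in each of the 12 libraries than in any of these, as were 3.6% of 17208 tested genes. The median log2(CPM + 0.5) of the lower DEGs was 0.90 to 1.15 in the Tpp1-/- libraries of 2 months, 2.02 to 2.27 in their controls, and 1.67 to 2.39 in the libraries of the other 4 Cb groups.

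**Figure D3:**
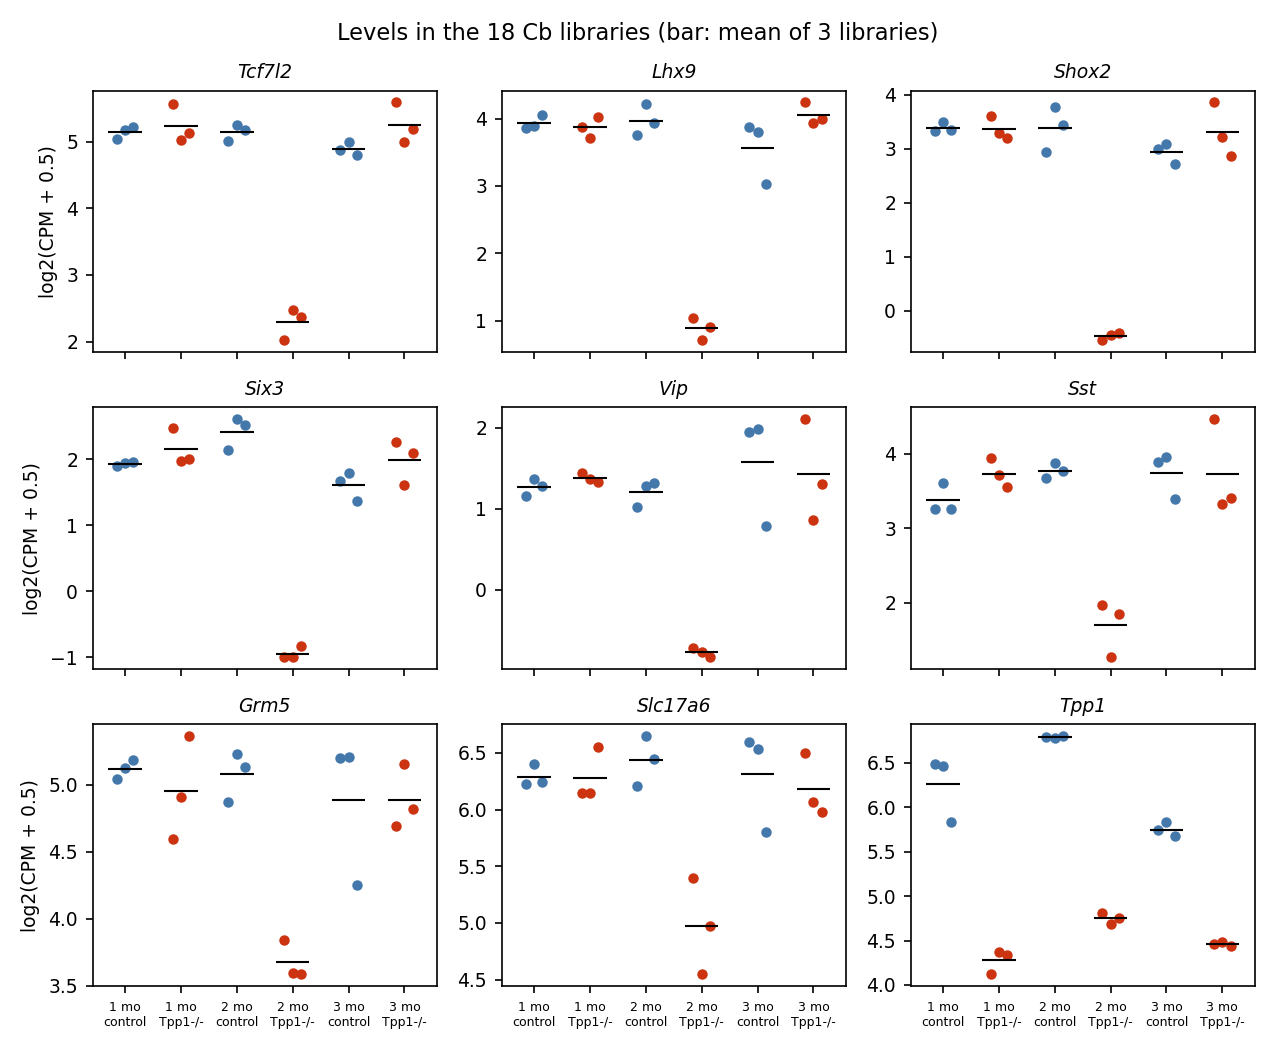
Levels, as log2(CPM + 0.5), of 8 genes that were lower and of Tpp1 in the 18 Cb libraries (points; blue, control; red, Tpp1-/-; bar, mean of 3). For Tcf7l2, Lhx9, Shox2, Six3, Vip, Sst, Grm5 and Slc17a6 the 3 Tpp1-/- libraries of 2 months lie below the other 15, whereas Tpp1 is low in the Tpp1-/- libraries of every age.

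Markers of cortex, striatum and hippocampus split into genes that fell and genes that did not. Of 34 such genes 7 were lower and 2 were higher DEGs (1.80% and 0.250% of all genes were), 25 belonged to the F/M-high class, of which 12.3% were lower, and the median was -0.09. Drd2, the dopamine D2 receptor, fell from 5.06, 4.52 and 5.19 to 0.910, 0.409 and 0.750 CPM (-2.80 ± 0.22, adjusted p = 1.52e-07). Rasgrf2, an exchange factor for Ras in cortical neurons, fell from 23.6, 34.6 and 29.5 to 9.57, 4.36 and 7.12 CPM (-2.04 ± 0.19, adjusted p = 9.17e-07). Meis2, Lhx2, Fibcd1, Emx2 and the peptide gene Tac1 were the other lower DEGs of this list. Defining genes of cortex stood elsewhere: Neurod6 was at 6.29 to 6.39 CPM in controls and 6.91 to 7.77 in Tpp1-/- Cb (log2 fold change 0.22 ± 0.10, adjusted p = 0.49), and Tbr1 at 0.748 to 1.05 and 0.619 to 0.875 (-0.39 ± 0.29, adjusted p = 0.779). The striatal genes Drd1 and Adora2a had log2 fold changes of -0.69 ± 0.34 (adjusted p = 0.614) and 0.10 ± 0.22 (adjusted p = 0.96). Lamp5, a gene of cortical interneurons that was a higher DEG, rested on single libraries, since it lay at 9.57, 2.04 and 6.06 CPM in Tpp1-/- Cb against 2.65, 3.08 and 1.80, overlapped, and lost its call without any of 5 of the 6 libraries, with adjusted p up to 0.668. The higher DEG Dsp, a desmosomal gene, likewise lost its call without any of 5 libraries, with adjusted p up to 0.447.

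Neuropeptide genes showed the lowest median of the lists. Of 30 measured 8 were lower DEGs and none was higher, against 1.80% lower of all genes and 12.3% of the F/M-high class, to which 22 of the 30 belonged, and the median log2 fold change was -0.78. Vip, vasoactive intestinal peptide, lay at 1.55, 1.94 and 2.00 CPM in controls and at 0.109, 0.0908 and 0.0625 CPM in Tpp1-/- Cb (-4.24 ± 0.31, adjusted p = 6.56e-08). Sst, somatostatin, fell from 12.4, 14.3 and 13.1 to 3.42, 1.91 and 3.12 CPM (-2.23 ± 0.16, adjusted p = 6.87e-08). Cbln2, a synapse organiser related to the granule cell protein Cbln1, fell from 7.94, 10.6 and 9.84 to 1.42, 0.409 and 0.875 CPM (-3.33 ± 0.22, adjusted p = 1.86e-08), and Tac1, the substance P precursor, from 6.50, 8.73 and 8.54 to 1.93, 0.136 and 1.00 CPM. Tac1 varied most among the Tpp1-/- libraries but did not reach the controls. Vgf, Pnoc, Cartpt and Pdyn were also lower DEGs, of which Pdyn, the dynorphin precursor, lost its call without control replicate 3, Tpp1-/- replicate 2 or Tpp1-/- replicate 3 (adjusted p up to 0.331).

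Genes of monoamine and acetylcholine signalling and of fast synaptic transmission were lower in part. Of 26 monoamine and acetylcholine genes 5 were lower DEGs (1.80% of all genes were), with a median of -0.32. They were the serotonin receptor Htr1a (-2.82 ± 0.29), the choline transporter Slc5a7 (-1.44 ± 0.30), choline acetyltransferase Chat, and the nicotinic receptor subunits Chrna3 and Chrna4, of which Chat lost its call without any of 3 libraries, Chrna3 without any of 4 (adjusted p up to 0.200 and 0.228) and Chrna4, by its fold, without Tpp1-/- replicate 2. Without that library 3 genes of the list were left. Of 45 glutamate, GABA and glycine receptor genes 6 were lower DEGs, with a median of -0.06: Grm5, Glra3, Gabrg3, Gabra5, Glra2 and Gabrq, which were all F/M-high, as were 19 genes of the list in all. Grm5, the metabotropic glutamate receptor mGluR5, fell from 29.0, 37.2 and 34.5 to 13.9, 11.6 and 11.5 CPM (-1.44 ± 0.12, adjusted p = 3.52e-07). Gabrq did not overlap between the groups but lost its call without any of 5 of the 6 (adjusted p up to 0.240). Of 40 ion channel genes 7 were lower DEGs, again all from the 17 F/M-high genes of the list, with a median of -0.07. Kcnc2, the potassium channel Kv3.2, fell from 27.0, 32.7 and 27.6 to 14.2, 7.77 and 10.2 CPM (-1.42 ± 0.14, adjusted p = 1.97e-06), and 4 of the 7 were left without control replicate 2.

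Granule cell, Purkinje cell and Bergmann glia genes held 2 DEGs. None of 30 granule cell genes was a DEG by edgeR, DESeq2 or limma-voom, at a median of 0.04, and 5 had an unadjusted p under 0.05, against 9.67% of all genes (1 was a DEG without control replicate 2). Of the 30, 23 had a positive log2 fold change and 9 did not overlap between the groups, against 18.1% of all genes. Among 31 Purkinje cell genes the transcription factor Foxp2, which is also found in cortex and thalamus, was the 1 lower DEG (21.97, 24.5 and 22.97 against 12.4, 16.3 and 14.6 CPM, -0.69 ± 0.10, adjusted p = 4.57e-04), and it fell short of the fold minimum without Tpp1-/- replicate 1. The median of that list was 0.09. Itpr1, the calcium release channel of Purkinje cells, had a mean of 3562 CPM in controls and 4292 CPM in Tpp1-/- Cb (0.27 ± 0.10, adjusted p = 0.26). Of 30 Bergmann glia and astrocyte genes Slc6a11, the GABA transporter GAT3 of astrocytes in brainstem and thalamus, was the 1 lower DEG, at 144, 198 and 170 against 92.1, 66.3 and 77.3 CPM (-1.12 ± 0.12, adjusted p = 4.76e-06). The Bergmann glia genes Gdf10 and Slc1a3 had log2 fold changes of -0.16 ± 0.06 (adjusted p = 0.367) and 0.16 ± 0.09 (adjusted p = 0.628). Of 26 interneuron genes Klhl1, Chrm2 and Sst were lower DEGs, or 11.5% against 1.80% of all genes, with a median of -0.02. Klhl1 and Chrm2 belonged to the shared class and Sst to the F/M-high class.

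The few Cb-high DEGs were of several kinds. En1, a homeobox gene of the midbrain-hindbrain border, fell from 4.89, 5.83 and 5.79 to 1.67, 3.50 and 2.44 CPM (-1.14 ± 0.21, adjusted p = 0.00391). Its relative En2, which granule cells express, had means of 144 and 137 CPM (-0.08 ± 0.07, adjusted p = 0.862). Of 9 measured genes of isthmus and hindbrain, with a median of -0.09, Pax5 was the lower DEG beside En1 (1.80% of all genes were lower), at 1.90, 1.45 and 1.05 against 0.910, 0.363 and 0.312 CPM, and it lost its call without any of 4 libraries (adjusted p up to 0.301); 21 of the 30 listed genes, most of them Hox genes, had too few counts to be tested. Slc24a5, AC112142.1, Rdh5 and Tdgf1 were the higher Cb-high DEGs, and Rdh5 is also on the choroid plexus list. The log2 fold change was 0.95 ± 0.20 for the cation exchanger Slc24a5, 0.66 ± 0.14 for AC112142.1, 0.63 ± 0.14 for the retinol dehydrogenase Rdh5 and 0.59 ± 0.17 for Tdgf1 (adjusted p between 0.00975 and 0.0972). Rdh5 lost its call without control replicate 2 (adjusted p = 0.125).

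Immediate early genes, which neurons switch on within minutes of activity, were lower in part. Of 29 measured 6 were lower DEGs (1.80% of all genes were) and none was higher, 14 were F/M-high, and the median was -0.25. The promoters of the lower genes are shown because these genes share a response to calcium and cAMP, for which the half-site TGACG of the cAMP response element is known. RefSeq (GRCm38.p6) gave a promoter of 300 bases, from 250 before to 50 after the start, for 4 of the 6, with every TGACG or its reverse complement in capitals.
Dusp1 (chr17:26508423-26508722, minus strand): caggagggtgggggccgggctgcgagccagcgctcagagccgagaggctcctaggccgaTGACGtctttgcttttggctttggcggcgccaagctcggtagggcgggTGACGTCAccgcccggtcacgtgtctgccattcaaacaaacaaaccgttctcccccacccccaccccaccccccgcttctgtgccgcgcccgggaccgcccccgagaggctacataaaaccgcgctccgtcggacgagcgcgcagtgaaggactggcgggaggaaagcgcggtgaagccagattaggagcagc
Fos (chr12:85473640-85473939, plus strand): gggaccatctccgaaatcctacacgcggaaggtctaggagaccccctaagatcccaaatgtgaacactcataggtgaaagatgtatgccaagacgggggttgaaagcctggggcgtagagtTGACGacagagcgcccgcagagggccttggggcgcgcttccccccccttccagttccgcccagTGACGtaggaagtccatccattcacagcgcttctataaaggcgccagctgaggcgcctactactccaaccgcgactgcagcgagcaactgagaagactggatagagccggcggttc
Junb (chr8:84978699-84978998, minus strand): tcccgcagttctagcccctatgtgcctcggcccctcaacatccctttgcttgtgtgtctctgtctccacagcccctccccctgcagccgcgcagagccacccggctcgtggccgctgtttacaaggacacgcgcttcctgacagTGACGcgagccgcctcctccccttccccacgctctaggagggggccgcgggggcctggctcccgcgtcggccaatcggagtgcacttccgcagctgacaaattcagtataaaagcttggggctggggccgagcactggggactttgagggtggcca
Npas4 (chr19:4989922-4990221, minus strand): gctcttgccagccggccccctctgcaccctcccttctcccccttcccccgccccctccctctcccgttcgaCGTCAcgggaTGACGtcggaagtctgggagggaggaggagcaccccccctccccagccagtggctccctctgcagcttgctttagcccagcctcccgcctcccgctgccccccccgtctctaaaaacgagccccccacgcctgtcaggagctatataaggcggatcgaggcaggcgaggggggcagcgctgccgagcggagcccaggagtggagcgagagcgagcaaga
Each of the 4 held TGACG on either strand, 3 times in Dusp1 (with 2 overlapping in 1 whole TGACGTCA), 2 times in Fos and Npas4 and 1 time in Junb. Among all 32851 promoters of this length 20.8% held TGACG, and among the promoters of the 22 immediate early genes with an entry 16 did. The whole element TGACGTCA was found in 1.79% of all promoters and in 3 of the 22. A match describes these letters and is no evidence of binding.

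In the libraries, Dusp1, a phosphatase of MAP kinases, lay at 35.0, 28.2 and 28.6 CPM in controls and 22.8, 16.6 and 19.1 CPM in Tpp1-/- Cb (-0.64 ± 0.11, adjusted p = 0.00115). Npas4, a factor of activity-driven inhibition, fell from 6.44, 2.76 and 4.89 to 2.15, 1.91 and 1.75 CPM (-1.23 ± 0.26, adjusted p = 0.00968). Egr3, a zinc finger factor, fell from 3.74, 2.58 and 2.70 to 0.764, 0.454 and 0.875 CPM (-2.10 ± 0.32, adjusted p = 4.57e-04), and Nptx2, a secreted pentraxin, had a log2 fold change of -1.49 ± 0.29 (adjusted p = 0.00454). Junb was at 7.94, 7.69 and 6.89 against 4.11, 4.45 and 5.81 CPM (-0.67 ± 0.14, adjusted p = 0.00679). Fos overlapped between the groups, with 21.2, 11.8 and 17.6 against 12.01, 5.90 and 8.75 CPM, and lost its call without control replicate 1 or Tpp1-/- replicate 2 (adjusted p up to 0.119). Dusp1 fell below the fold minimum without the same libraries and Junb without Tpp1-/- replicate 1. In F/M the log2 fold changes of Dusp1, Fos and Npas4 were -0.46, -0.68 and -0.89, and the difference between the regions was not called for them (adjusted p between 0.736 and 0.855), whereas it was called for Egr3 (-1.79, adjusted p = 0.00599) and Junb (-0.67, adjusted p = 0.0494).

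Choroid plexus genes were the main group that rose. All 40 listed genes had a positive log2 fold change, 15 were higher DEGs (the share of higher DEGs among all genes was 0.250%), and the median was 0.60. Their summed level was 2450 to 2810 CPM in controls and 3610 to 3860 CPM in Tpp1-/- Cb, with no overlap. Prlr, the prolactin receptor, rose from 15.99, 17.1 and 17.3 to 36.7, 28.8 and 28.3 CPM (0.90 ± 0.14, adjusted p = 5.63e-04). Col8a1, a collagen, rose from 7.25, 8.23 and 8.09 to 14.8, 13.7 and 14.6 CPM (0.87 ± 0.12, adjusted p = 1.43e-04). Slc4a5, a sodium bicarbonate transporter of the epithelium's ventricular side, rose from 11.4, 10.8 and 12.5 to 18.9, 20.1 and 20.5 CPM (0.78 ± 0.13, adjusted p = 9.97e-04), and the water channel Aqp1 from 4.66, 5.02 and 5.44 to 9.72, 9.67 and 10.1 CPM (0.96 ± 0.21, adjusted p = 0.0120). Abca4, Sostdc1 and Oca2 rose by 0.73 ± 0.12, 0.92 ± 0.18 and 1.53 ± 0.26.

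The genes that define the plexus were called in part. Ttr, transthyretin, lay at 1118, 845 and 944 CPM in controls and 1542, 1384 and 1504 CPM in Tpp1-/- Cb, with no overlap, and did not pass the test (0.61 ± 0.21, adjusted p = 0.229). Kl, klotho, was at 49.98, 38.1 and 42.2 against 75.6, 64.0 and 69.7 CPM (0.69 ± 0.18, adjusted p = 0.0552) and lost its call without any of 4 libraries (adjusted p up to 0.291), and Folr1, the folate receptor, did not pass (0.56 ± 0.25, adjusted p = 0.448). Calml4 and Cldn1 lost their calls without any of the 6 libraries and Cldn2 without any of 5 (adjusted p up to 0.328, 0.376 and 0.259). Between 8 and 13 of the 40 were DEGs when a library was left out, 8 of them without control replicate 2. In F/M of 2 months the list had a median of 0.56, and 12 of its 40 genes were higher DEGs there (0.650% of all genes). The difference between the regions was called for 0 of 40, near the share of all genes (2.97%). In Cb the median was 0.58 at 1 month and -0.03 at 3 months. The summed level of the list spanned 1150 to 3200 CPM over the 6 Cb libraries of 1 month and 2010 to 3190 CPM over those of 3 months. The score of the list lay with genotype for 97.3% of its variance in the 6 libraries, so that plexus content and genotype cannot be told apart in them.

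**Figure D4:**
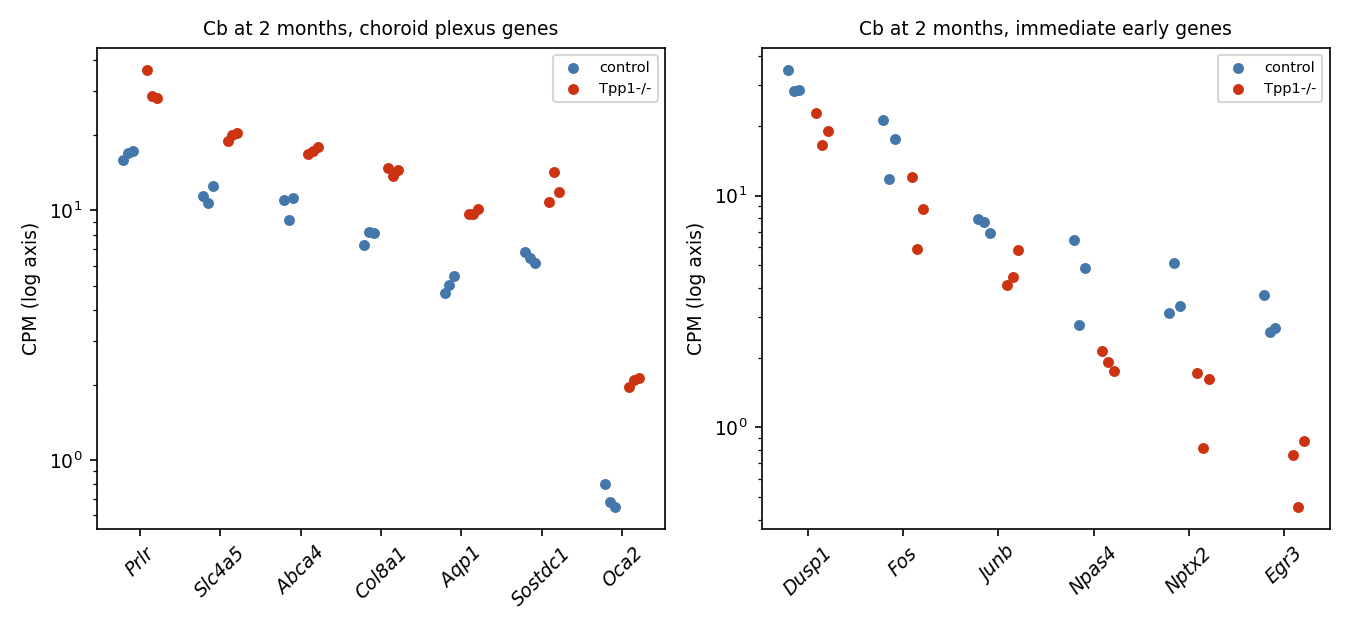
CPM on a log axis of 7 choroid plexus genes (left) and 6 immediate early genes (right) in the 3 control (blue) and 3 Tpp1-/- (red) Cb libraries of 2 months. Red points lie above blue points for every choroid plexus gene drawn, for example 28.3 to 36.7 against 15.99 to 17.3 CPM for Prlr, and below them for every immediate early gene except Fos, where 12.01 CPM in a Tpp1-/- library exceeds 11.8 CPM in a control.

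Ependymal genes held 1 DEG. Of 36 measured genes of ependyma and motile cilia 29 had a positive log2 fold change (49.9% of all genes had a negative one) and the median was 0.23, but Drc7, a part of the ciliary dynein regulatory complex, was the 1 higher DEG (0.74 ± 0.20, adjusted p = 0.0584), beside 0.250% of all genes, and it lost its call without any of 4 libraries (adjusted p up to 0.321). Mfrp, a membrane protein best known from retinal pigment epithelium, was among the 12 higher DEGs with the largest change, at 8.40, 6.96 and 7.89 against 16.9, 15.1 and 14.9 CPM (1.02 ± 0.25, adjusted p = 0.0351), and lost its call without any of 3 libraries (adjusted p up to 0.188). None of 30 endothelial and mural genes (median 0) and none of 30 meningeal fibroblast genes (median 0.04) was a DEG by edgeR, DESeq2 or limma-voom, and 0 and 2 of them had an unadjusted p under 0.05 (9.67% of all genes had).

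**Figure D5:**
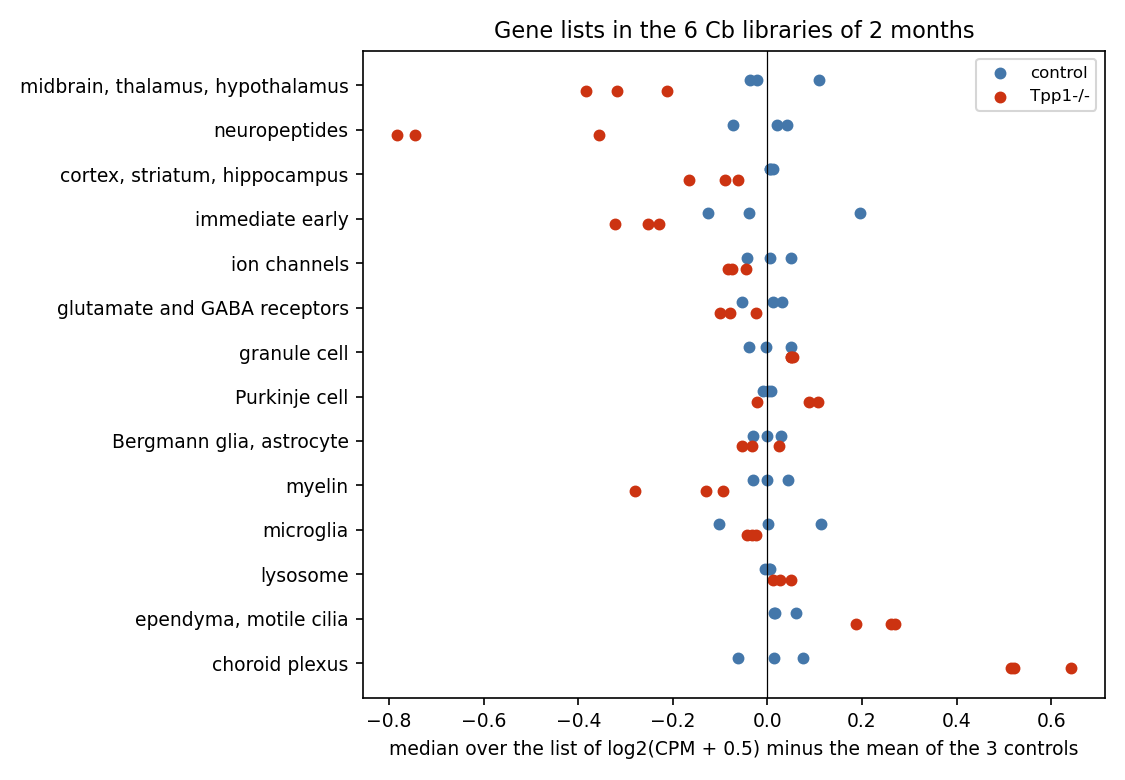
Median over each of 14 gene lists of log2 CPM minus the mean of the 3 controls (x axis) in the 3 control (blue) and 3 Tpp1-/- (red) Cb libraries of 2 months. The log2 CPM are those of edgeR with its default prior count, although the axis names log2(CPM + 0.5). The Tpp1-/- libraries lie from -0.36 to -0.78 for neuropeptides, from -0.21 to -0.38 for midbrain, thalamus and hypothalamus and from 0.51 to 0.64 for choroid plexus, and near 0 for granule cell, Bergmann glia, microglia and lysosome.

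Outside these groups the largest rise was that of Gm15446, a predicted gene, with 0.460, 0.0904 and 0.250 CPM in controls and 8.26, 7.40 and 7.37 CPM in Tpp1-/- Cb (4.89 ± 0.28, adjusted p = 2.42e-09). It rose by 5.23 in F/M as well, and at 1 month it reached 11.1 CPM in a Cb control and 1.62 CPM in another, so that a high level was not restricted to Tpp1-/- mice. Igfn1, a muscle protein of the immunoglobulin family, rose from 0.978, 0.633 and 0.649 to 1.57, 1.59 and 1.499 CPM (1.07 ± 0.21, adjusted p = 0.00496). The noncoding genes Gm40518 and AC155298.2 had log2 fold changes of 3.79 ± 0.79 and 3.23 ± 0.65, from levels of at most 0.115 CPM in controls. Cox8b, a cytochrome oxidase subunit of heart and muscle, Ankrd23, Gm43154, Tc2n and Rpe65 were also among the 12. Each of these 5 lost its call in at least 2 of the 6 leave-one-out fits, with adjusted p up to 0.205 for Cox8b, 0.276 for Ankrd23, 0.203 for Gm43154, 0.256 for Tc2n and 0.272 for Rpe65. Over all genes the 43 higher DEGs became 23 without control replicate 2 and 25 without Tpp1-/- replicate 1.

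Genes near Tpp1 on chromosome 7 were listed because they share the targeted chromosome with it. Within 1000 kb of Tpp1 20 genes were tested and 4 were lower DEGs, namely Tpp1, Cckbr, Dchs1 and Gm8995, while 1.80% of all genes were lower and 2.05% were DEGs. Dchs1 (GRCm38 chr7:105752990-105787654), a cadherin whose end lies beside the start of Tpp1, was at 13.9, 16.1 and 15.5 CPM in controls and 9.46, 10.5 and 9.12 CPM in Tpp1-/- Cb (-0.65 ± 0.10, adjusted p = 5.46e-04). The neighbours Taf10, Ilk, Rrp8 and Mrpl17 had log2 fold changes between -0.14 and -0.07. Within 5000 kb 89 genes were tested, and 8 were lower DEGs and 1, Olfml1, was higher (0.75 ± 0.12, adjusted p = 7.88e-04). A cluster of Trim genes at -1495 to -1260 kb from Tpp1, which encode antiviral ubiquitin ligases, held 4 of the lower ones, and its other measured members Trim12c and Trim30a had log2 fold changes of 0.36 (adjusted p = 0.484) and -0.41 (adjusted p = 0.608). Over a list of 10 measured Trim genes of chromosome 7, which takes in Trim3 at -130 kb and the more distant Trim21, Trim66 and Trim68, the median was -0.31. Trim12a had 131 reads in controls and 1 in the Tpp1-/- libraries, a ratio of 144 (95% counting interval 25.4 to 5740), and Trim34a and Trim30d had log2 fold changes of -2.47 ± 0.35 and -2.14 ± 0.35 (adjusted p = 1.83e-04 and 8.44e-04). Trim5, with 23 reads against 3, lost its call without any of 5 libraries (adjusted p up to 0.414). Trim12a had 0 CPM in the 3 Tpp1-/- libraries of F/M at 2 months and of Cb at 1 month, but 2.16, 1.28 and 1.51 CPM in those of Cb at 3 months, against 1.08, 1.29 and 1.13 CPM in the controls there. These genes are near copies of each other. The authors' counting options name a splitting of multiply matched reads, but all values are whole, and how reads that match several of these genes were counted was not tested.

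Lysosomal and glial genes were counted against 1.80% lower and 0.250% higher DEGs among all genes. Of 59 lysosomal genes Tpp1 was the 1 DEG, a share near that of all genes, and the median was 0.03. Gaa, acid alpha-glucosidase, had an adjusted p of 0.037 but stayed below the fold minimum (-0.28 ± 0.07). None of 30 homeostatic microglial genes was a DEG by edgeR, DESeq2 or limma-voom (median -0.05, 2 with an unadjusted p under 0.05), and of 25 genes of disease-associated microglia Timp2, an inhibitor of metalloproteinases that belonged to the F/M-high class, was lower (83.3, 104 and 92.2 against 60.9, 60.0 and 56.8 CPM, -0.65 ± 0.08, adjusted p = 1.86e-05); it fell below the fold minimum without control replicate 2. In Cb of 3 months the medians of these 2 lists were 0.95 and 0.71. Among 30 reactive astrocyte genes Serpina3n, a protease inhibitor that is also F/M-high, was lower at 3.85, 5.52 and 4.94 against 2.69, 2.36 and 2.50 CPM (-0.93 ± 0.16, adjusted p = 0.00156), and at 3 months its log2 fold change was 2.59, with a difference between the ages of -3.52 (adjusted p = 7.91e-10). Myelin genes held no DEG among 30 by the same tests, at a median of -0.15, but 12 had an unadjusted p under 0.05 (9.67% of all genes had), 15 did not overlap between the groups (18.1% of all genes did not), and 4 had a positive log2 fold change. The median of the list lay lower in each Tpp1-/- library than in any control, and up to 2 of its genes were DEGs when a library was left out. Mog, a myelin surface protein, stayed below the fold minimum (-0.34 ± 0.08, adjusted p = 0.0238). Of 20 genes of oligodendrocyte precursors Tcf7l2 was lower and Rlbp1, a retinaldehyde-binding protein, was higher (0.60 ± 0.13, adjusted p = 0.0172; it lost its call without control replicate 2 or Tpp1-/- replicate 2, with adjusted p up to 0.145).

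Of 9 measured blood genes the neutrophil genes S100a8, S100a9 and Ngp were lower DEGs (1.80% of all genes were), at a median of -0.60 for the list. S100a9 fell from 3.22, 5.52 and 3.99 to 0.837, 2.32 and 1.62 CPM (-1.46 ± 0.29, adjusted p = 0.00527), and S100a8 lost its call without control replicate 2 or Tpp1-/- replicate 1 (adjusted p up to 0.181). The haemoglobin genes Hba-a1 and Hbb-bs, at 13.6 to 26.7 and 57.1 to 126 CPM in controls, did not pass the test (adjusted p = 0.686 and 0.541). Interferon-stimulated genes (29), MHC genes (18), sterol synthesis genes (30), circadian genes (20) and stress and chaperone genes (25) held no DEG by edgeR, DESeq2 or limma-voom, with medians of -0.07, -0.03, 0.02, 0.03 and 0.10. An unadjusted p under 0.05 was found for 0, 1, 1, 1 and 1 of them, against 9.67% of all genes.

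The difference between the regions and ages was tested gene by gene. The effect in Cb differed from that in F/M of 2 months for 511 genes, or 2.97% of those tested, 481 of them with the lower value in Cb (2.79%), and F/M itself had 127 DEGs (0.737%), 112 higher (0.650%) and 15 lower (0.0871%). The count was 324 without control replicate 2 of Cb, 328 without Tpp1-/- replicate 3 of F/M and 832 without control replicate 1 of F/M. Of the 310 lower DEGs in Cb, which were chosen by the Cb libraries that also enter this test, 257 were called in it. The median log2 fold change of the 310 was -1.34 in Cb and 0.05 in F/M. Of the 43 higher DEGs 6 were called, and the median was 0.80 in Cb and 0.54 in F/M, with 14 of them DEGs of the same direction in F/M. Against Cb of 1 month the effect differed for 235 genes (1.28% of 18322), 232 of them lower at 2 months (1.27%), and for 153 without Tpp1-/- replicate 2. Against Cb of 3 months it differed for 263 genes (1.44%), 239 of them lower at 2 months (1.30%), and for 116 in a fit of the 12 Cb libraries of 2 and 3 months alone. Within those ages Cb had 2 DEGs at 1 month (0.0112% of the genes tested) and 148 at 3 months (0.859%), 116 of them higher (0.673%). The lower DEGs had medians of 0.06 at 1 month and -0.08 at 3 months, and the higher DEGs of 0.62 and -0.04. The ages were counted with different annotations and settings, and log2 fold changes were taken against the controls of the same age.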

How the data were processed

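RNA-seq counts per gene of 36 libraries were used, with 3 mice per group. The authors aligned 50-nt single-end reads with STAR 2.5.2b to mm10 per the submitters' processing notes and deposited raw featureCounts counts, whole and not normalized. Per the file headers the version was 1.6.3 at 1 month and 1.6.2 at 2 and 3 months, and annotation (GENCODE M21, M16 and M18) and strand setting also differed between the ages. Options for splitting multiply matched reads stand in the headers, although all values are whole. Gene names came from the annotation given for this work, and other columns were not used.

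The 12 libraries of an age were fitted as 4 groups with edgeR 4.0.16 in R 4.3.3 (filterByExpr, TMM, two-sided quasi-likelihood test, Benjamini-Hochberg adjustment over all genes tested). Differences between ages came from all 36 libraries over 18322 genes. CPM are TMM-scaled, and errors of log2 fold changes are SE. The p-values rest on a spread between mice within groups that was estimated over all groups of a fit together, F/M included. An exact permutation of 3 against 3 could not go below 0.1. Group, age, region and replicate number were read from the labels. Named genes are Tpp1, the 8 lower DEGs with the largest change in each class and the 12 higher ones whose groups do not overlap, up to 4 members of each of 29 lists with the smallest p, and list members that were DEGs. A few neighbours of Tpp1, defining markers and Cb-high genes were added after their values were seen, and a few genes that the rule names are not reported here. The members and lists were chosen with earlier results of these data known.

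Alternatives were DESeq2 1.42.0, limma-voom (limma 3.58.1), other scalings, filters and thresholds, a replicate block, covariates, other class limits and leaving out libraries. Deviations of same-numbered Cb libraries had correlations of 0.103, 0.164 and -0.037, against -0.151 to 0.053 for libraries of different number. The labels do not say whether the numbers pair mice, and no pairing was assumed in the main fit. In counts simulated for the Cb comparison at 2 months over 16799 genes, 38.8% of genes changed 1.5-fold, 93.8% of those changed 2-fold, 100% of those changed 3-fold and 93.9% of those changed 4-fold were called, beside 8 false calls. Each gene was simulated at its mean level over the F/M and Cb libraries together. The rates are thus too high for F/M-high genes, whose level in Cb is lower than that mean. Figures were made with Python 3.11.15 and matplotlib 3.10.9.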

Additional observations from a re-analysis of the deposited data

Results flagged for a closer look

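The effect of Tpp1 loss in Cb at 2 months differed from another contrast by a test of the difference itself in 511 genes against F/M of the same age, in 235 genes against Cb of 1 month and in 263 genes against Cb of 3 months (edgeR, adjusted p under 0.1). Among the 101 named DEGs the difference from F/M was called for 60, the difference from 1 month for 44 and that from 3 months for 51. Over all genes the shares called were 2.97%, 1.28% and 1.44%. The named DEGs were chosen by their effect in Cb at 2 months, which enters each difference, so these counts are no independent result. The difference, in log2 units, was negative for the transcription factors and their antisense RNAs Emx2 (-4.16), Emx2os (-4.30), En1 (-2.02), Foxp2 (-0.83), Gata3 (-8.01), Lhx2 (-2.89), Lhx9 (-3.96), Meis2 (-1.24), Nr2e1 (-6.37), Pax5 (-2.37), Pax7 (-5.29), Pou4f1 (-3.27), Pou4f2 (-5.20), Shox2 (-6.13), Six3 (-8.29), Six3os1 (-6.12), Tcf7l2 (-3.50), Tfap2d (-6.76), Egr3 (-1.79) and Junb (-0.67). It was also negative for the neuropeptides and secreted proteins Cartpt (-3.32), Cbln2 (-3.21), Pnoc (-1.02), Sst (-2.29), Tac1 (-2.81), Vgf (-0.94), Vip (-3.89), Serpina3n (-0.76) and Timp2 (-0.69). It was also negative for the receptors, channels, transporters and transmitter enzymes Cacna1h (-1.27), Chat (-3.89), Chrm2 (-1.18), Chrna3 (-0.94), Chrna4 (-0.69), Drd2 (-2.96), Gabra5 (-1.57), Gabrg3 (-1.39), Gabrq (-1.99), Glra2 (-0.90), Glra3 (-2.46), Grm5 (-1.42), Htr1a (-2.90), Kcnc2 (-1.33), Scn3a (-1.31), Slc17a6 (-1.79), Slc5a7 (-2.10) and Slc6a11 (-1.66). The other named genes with a negative difference were BC035947 (-3.66), Cox6a2 (-4.08), Fibcd1 (-1.79), Gm10421 (-4.34), Klhl1 (-1.17) and Rasgrf2 (-2.12). The difference was positive for AC155298.2 (2.82), Gm40518 (3.94), Gm43154 (1.63), Igfn1 (1.30) and Lamp5 (1.67).

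Of the genes without a called difference from F/M, the effect at 2 months minus that at 1 month was -0.75 for Kcnh3 and -1.82 for Nptx2. The effect at 2 months minus that at 3 months was -0.75 for Tpp1, -7.19 for Trim12a, -2.32 for Trim30d and -2.78 for Trim34a. Tpp1 in the Cb controls of 3 months, labelled wt, was at 50.5 to 56.4 CPM, near the 56.5 CPM of the control labelled Tpp1+/- at 1 month. Groups of 3 libraries were not tested for single outlying libraries.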

How the results depend on the processing

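The 353 DEGs (310 lower, 43 higher) became 344 with DESeq2, 318 with limma-voom, 347 with RLE scaling, 354 with library totals alone and 309 in a fit of the 6 Cb libraries alone, and lower genes made up 84.3% to 94.3% of DEGs under every alternative except the choroid plexus covariate, where they were 56.1% (334 of 595). Other scaling moved the median log2 fold change of all genes by at most 0.002.

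Without a filter on low counts 68 genes were higher. Without a fold minimum there were 530 DEGs, 468 of them lower, with 118 lower shared and 10 Cb-high genes, and with a fold of at least 2 there were 227, 13 of them higher, with 37 lower and 6 higher shared genes and 1 Cb-high gene. With class limits of 1.5-, 4- and 16-fold the Cb-high DEGs numbered 9, 1 and 0, the lower shared genes were 136 and 281 at the last 2 limits, and the lower F/M-high genes 26 at the last. Classes from 3 months alone gave 10 and from 1 month alone, added after the data were seen, 9 Cb-high DEGs. The 2 minus 3 month difference was called for 116 genes in the 12 Cb libraries alone. F/M content in control and Tpp1-/- Cb was 6.13% and 4% with 8-fold markers and 1.12% and 0.523% with 32-fold markers. The cause was not tested for any of these, beyond the number of genes each limit admits.

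Leaving out a library gave 257 to 358 DEGs, 234 to 317 lower and 23 to 45 higher, 182 to 249 lower F/M-high, 48 to 66 lower and 14 to 28 higher shared, and 4 to 7 Cb-high genes. The lower ends came without control replicate 2, and for the Cb-high genes also without any other library except Tpp1-/- replicate 2. The higher shared genes also fell to 18 without control replicate 3 and 15 without Tpp1-/- replicate 1. The difference from F/M was called for 324 to 832 genes, that from 1 month for 153 to 223 and that from 3 months for 194 to 257.

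The labels do not say whether replicate numbers pair mice. The correlations of same-numbered Cb libraries and their order on the second principal component did not decide it. With the replicate number as a block there were 306 DEGs (275 lower, 31 higher), with 215 lower F/M-high, 57 lower and 22 higher shared and 4 Cb-high genes, and the difference from F/M was called for 498.

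With the F/M score as a covariate, which lay with genotype for 92.1% of its variance, 11 genes were DEGs, 10 lower and 1 higher, with 2 lower F/M-high, 7 lower and 1 higher shared and 1 Cb-high gene. With the choroid plexus score (97.3%) 261 genes were higher, and 26 F/M-high and 240 shared genes lower, 215 shared genes higher and 86 Cb-high genes called. The log2 fold change changed sign with the F/M score for Slc17a6 (0.14), Slc6a11 (0.13), Meis2 (0.05), Chrm2 (0.06), Trim30d (0.22), Gabra5 (0.61), Serpina3n (0.07), Scn3a (0.63), Pou4f1 (1.42), Chrna4 (0.28), Nptx2 (0.65), Rdh5 (-0.31), Rlbp1 (-0.52), Kcna4 (0.11), Kcnh3 (0.38), Gabrq (0.75) and Kcnq5 (0.66). It changed sign with the choroid plexus score for Timp2 (0.10), Pou4f2 (2.02), BC035947 (1.39), Foxp2 (0.38), Prlr (-0.01), Trim30d (0.18), Glra2 (0.48), Serpina3n (0.28), Scn3a (0.72), Pou4f1 (3.12), En1 (0.89), Nptx2 (0.27), Igfn1 (-0.33), S100a9 (2.83), Ngp (0.33), Rdh5 (-0.08), S100a8 (2.36), Slc2a12 (-0.77), Kcna4 (0.34), Cox8b (-2.72), Gm43154 (-0.02), Mfrp (-0.20), Ankrd23 (-2.15), Tc2n (-0.42), Kl (-0.84), Drc7 (-0.51), Calml4 (-0.54), Lamp5 (-2.51), Cldn1 (-0.43), Kcnq5 (0.06) and Dsp (-0.55). The genes Lcn2 (6.64), Fabp7 (-2.84), Hspa5 (-1.69) and Vwf (3.42) were no DEGs without it. The cause was not tested.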
